A study of Homo sapiens with 18 samples.

Results

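The BCL2 family controls the mitochondrial pathway of apoptosis, and its transcripts were examined in 3 head and neck squamous cell carcinoma (HNSCC) cell lines with and without HGF. Members were the rows of the raw count table that carry the symbols BCL2, BCL2L1, MCL1, BCL2L11, BMF, BBC3, PMAIP1, BID, BIK and BAX, which are 10 of 19901 genes. All 10 passed the filter on low counts, which left 15475 genes for testing.

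The cell lines were Detroit 562, FaDu and SCC-9, each either left untreated (control) or stimulated with 50 ng/mL HGF, with 3 libraries per group and 18 in all. The sample records and the sequencing methods of the study give 16 h of HGF stimulation, whereas the series record gives 48 h. The medium of SCC-9 (DMEM F12) contained hydrocortisone and differed from that of the other lines (MEM-α), so cell line and medium cannot be told apart where SCC-9 is compared with the others.

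In this family the survival proteins BCL2, BCL-xL (from BCL2L1) and MCL1 hold the pore-forming effectors BAX and BAK in check at the mitochondrial membrane. The BH3-only proteins BIM (BCL2L11), BMF, PUMA (BBC3), NOXA (PMAIP1), BID and BIK bind the survival proteins, and some of them also activate the effectors directly. HGF is the ligand of the receptor tyrosine kinase Met, whose downstream MAPK and PI3K-Akt pathways are known for promoting survival of epithelial cells. Protein levels, phosphorylation and cell death were not measured by these libraries.

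Summed over all genes, the counts of a library lay between 35304770 and 44003970. A read in overlapping genes enters this sum more than once, so it is not a number of reads sequenced. DUSP6, a feedback phosphatase of ERK signaling that served as a check of the stimulus, rose in Detroit 562 (log2 fold change 1.53, adjusted p = 0.000247) and FaDu (1.44, adjusted p = 0.0115), and in SCC-9 its log2 fold change was 0.47 (adjusted p = 1.00) by edgeR's quasi-likelihood test. The 7 epithelial markers were detected in every line, and their summed normalized counts in Detroit 562 lay between 210700 and 301100 without HGF and between 138100 and 202300 with it. Of these 7, CDH1, KRT5 and KRT8 passed the test as lower in Detroit 562. The 7 markers of fibroblasts, endothelium and leukocytes summed to 1235 to 2278 in control and 617.2 to 1137 in HGF-stimulated Detroit 562, with PDGFRB at 0 in all 6 libraries and COL1A1, COL1A2 and VWF called lower. The same sum was 205.2 to 482.3 in control and 160.0 to 311.5 in HGF-stimulated FaDu. In SCC-9 it was 3076 to 3950 in control and 2391 to 3214 with HGF. The calls of KRT5 and COL1A2 were lost without control replicate 1, control replicate 2 or HGF replicate 3, that of KRT8 without control replicate 1 or HGF replicate 3, and that of VWF without control replicate 1. The part of these markers in the differences between Detroit 562 groups and between lines given here was not tested.

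The BH3-only transcripts BMF and BBC3 were called lower with HGF in Detroit 562, and no other member met the call rule in any line. When each of the 6 libraries was left out in turn, the BMF call held every time. The call of BBC3, which rested on 16 to 60 reads per library, held in 2 of 6. Calls required an adjusted p below 0.1 (edgeR's quasi-likelihood test, Benjamini-Hochberg adjustment over all tested genes) together with a log2 fold change of 0.4 or more in either direction. In Detroit 562, 2 of 10 members were called, both lower, beside 17.9% of all genes tested in either direction, 6.16% higher and 11.7% lower. In FaDu 0 of 10 members were called beside 0.0258% of all genes, and in SCC-9 0 of 10 beside 0%. At an unadjusted p below 0.05 Detroit 562 had 3 such members, FaDu 1 and SCC-9 3, beside 38.4%, 8.06% and 4.14% of all genes. The share of members called in Detroit 562 lay near that of all genes. Same-numbered libraries of a line deviated together, and when the replicate number entered the model as a block, edgeR called 2 members each for Detroit 562 and FaDu and 1 for SCC-9, beside 21.5%, 5.60% and 1.97% of all genes.

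**Figure D1:**
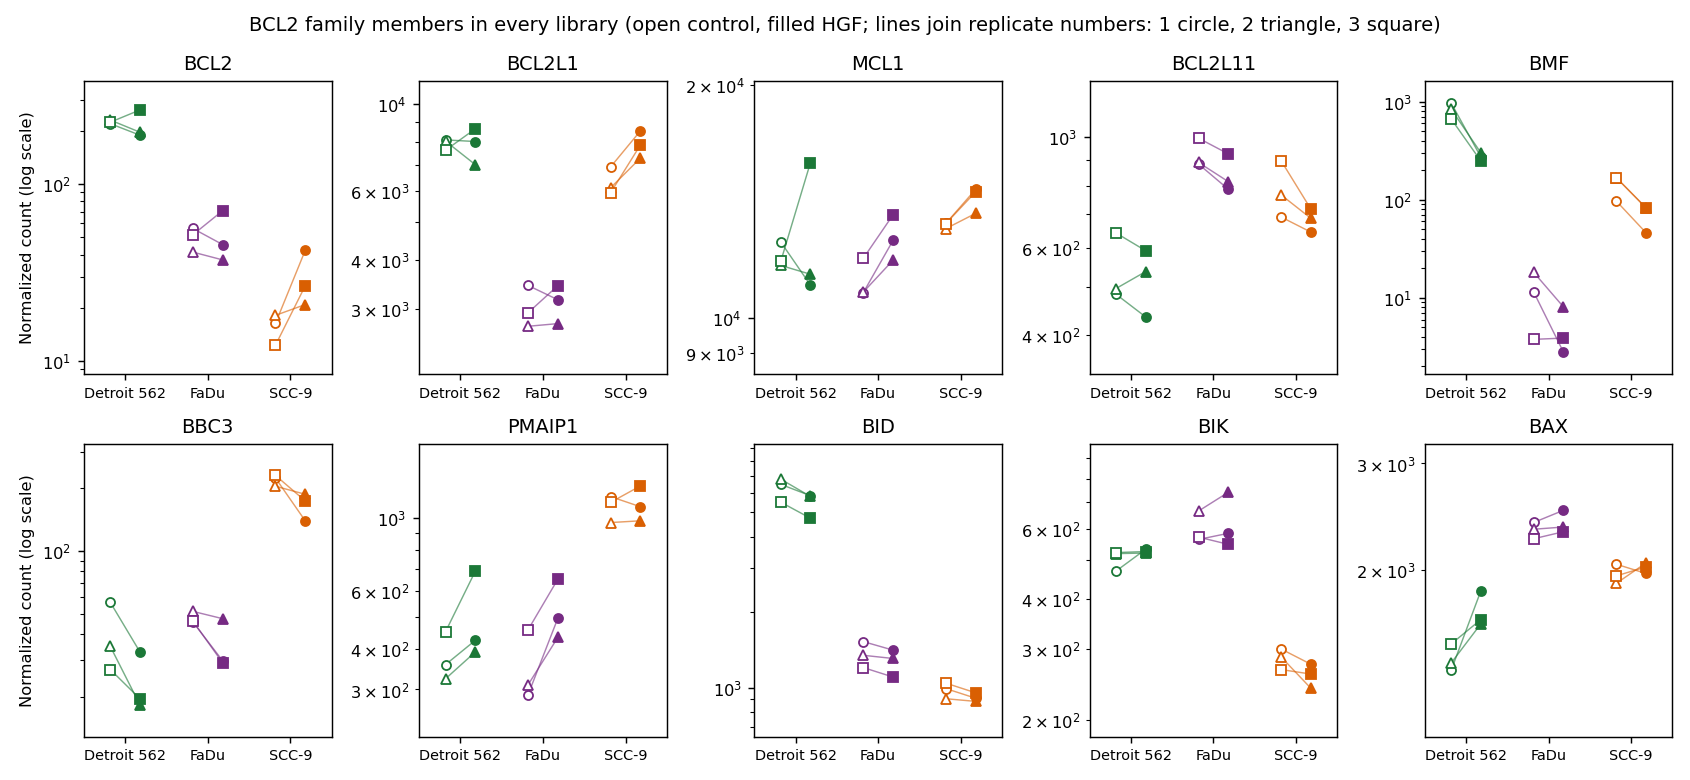
Normalized counts (log scale) of the 10 BCL2 family members in each of the 18 libraries, with open symbols for control and filled symbols for HGF and lines joining libraries of the same replicate number. BMF sits lower under HGF in all 3 pairs of Detroit 562 and SCC-9, and BBC3 and BID sit lower in all 9 pairs.

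BMF encodes a BH3-only protein that is held at the cytoskeleton and binds survival proteins once released. The gene lies on the minus strand at chr15:40087890-40108892 (GRCh38). The windows around the annotated RefSeq start sites of BMF, BBC3 and BAX (GRCh38.p14, 250 bases before and 50 after the start, 5′ to 3′) are shown because BMF and BBC3 fell together in Detroit 562 while the adjusted p of BAX passed its threshold in the other direction. Capitals mark matches on either strand to 5 motifs searched by their letters, namely the FOXO core GTAAACA, the AP-1 site TGANTCA, the CRE TGACGTCA, the E-box CACGTG and the ETS site CCGGAAG. The BMF window is chr15:40108830-40109129 on the minus strand, the BBC3 window chr19:47232618-47232917 on the minus strand and the BAX window chr19:48954625-48954924 on the plus strand.
BMF: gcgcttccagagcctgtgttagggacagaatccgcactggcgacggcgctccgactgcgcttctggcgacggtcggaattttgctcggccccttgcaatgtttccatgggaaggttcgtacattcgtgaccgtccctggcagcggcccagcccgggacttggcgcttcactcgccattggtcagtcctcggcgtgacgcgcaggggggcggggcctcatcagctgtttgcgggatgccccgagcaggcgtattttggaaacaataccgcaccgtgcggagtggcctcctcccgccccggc
BBC3: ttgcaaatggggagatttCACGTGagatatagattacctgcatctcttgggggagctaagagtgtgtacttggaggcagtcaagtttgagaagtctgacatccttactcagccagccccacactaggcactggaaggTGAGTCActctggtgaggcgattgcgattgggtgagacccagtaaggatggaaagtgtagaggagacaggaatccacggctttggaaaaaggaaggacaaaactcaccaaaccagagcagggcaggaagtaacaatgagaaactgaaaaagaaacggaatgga
BAX: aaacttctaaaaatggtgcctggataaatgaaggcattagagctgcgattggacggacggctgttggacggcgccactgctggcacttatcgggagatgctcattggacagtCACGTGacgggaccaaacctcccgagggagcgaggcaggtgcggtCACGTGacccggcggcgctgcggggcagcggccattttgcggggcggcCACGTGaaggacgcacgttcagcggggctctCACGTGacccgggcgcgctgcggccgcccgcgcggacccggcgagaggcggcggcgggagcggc

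Neither of the 2 BMF windows held any of the 5 motifs in these letters. Counted in bases from the start, the BBC3 window held an E-box at -232 and an AP-1 site at -113. The BAX window held 4 E-boxes, at -138, -93, -45 and -14, and at least 4 E-boxes were found in 5 of 35116 promoter windows (0.0142%). Over all 35116 windows, 7.26% held an E-box, 7.71% an AP-1 site, 3.42% a FOXO core, 10.3% an ETS site and 1.85% a CRE. Of the other members with a window, BCL2L11 held a FOXO core at -223, BCL2L1 an ETS site at 10, and BID an E-box in 2 of its 5 windows. These 2 BID windows overlap and hold the same E-box, since windows of a gene with several starts can overlap. These matches are descriptions of letters and no measurement of binding.

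In Detroit 562 the normalized counts of BMF were 968, 837 and 666 in the control libraries and 272, 300.5 and 248 in the HGF libraries. The groups did not overlap, and HGF was lower in all 3 pairs of the same replicate number. Mean values were 824 ± 151 (SD, n = 3) in control and 273 ± 26.5 (SD, n = 3) with HGF, a fitted decrease of 3.01-fold (log2 fold change -1.59, SE 0.26, adjusted p = 0.00121 by edgeR's quasi-likelihood test). In bulk RNA, fewer cells with the transcript and less transcript per cell cannot be told apart. By size of change BMF ranked 376 among 15475 genes. The call held when each of the 6 libraries was left out in turn, with log2 fold changes from -1.72 to -1.46.

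In SCC-9 the BMF counts were 96.9, 168 and 168 in control and 46.0, 82.4 and 82.7 with HGF. The groups did not overlap and HGF was lower in 3 of 3 pairs, by nearly the same ratio in each, yet the log2 fold change of -1.03 (SE 0.29) did not pass the adjusted threshold (adjusted p = 0.774, edgeR's quasi-likelihood test). With the replicate block it did (-1.03, adjusted p = 0.00128). In FaDu BMF was close to its detection limit, with 12, 18 and 4 reads in the control libraries and 3, 8 and 4 in the HGF libraries. There the log2 fold change was -1.16 (95% interval -2.46 to 0.14, adjusted p = 0.641 by edgeR), and with the block the adjusted p was 0.0832. The third FaDu pair showed no decrease. Averaged over the 3 lines, BMF fell by 1.26 on the log2 scale (SE 0.24, adjusted p = 0.00439, edgeR), and this call held without each of the 18 libraries.

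BBC3, at chr19:47220822-47232766 on the minus strand, encodes PUMA, a BH3-only protein known for its induction after DNA damage. In Detroit 562 its normalized counts were 56.7, 34.8 and 27.0 in control and 32.7, 18.2 and 19.5 with HGF. The ranges overlapped because control replicate 3 lay below HGF replicate 1, although HGF was lower in every pair. The decrease of 1.67-fold (log2 fold change -0.74, SE 0.30) had an adjusted p of 0.0750 in edgeR's quasi-likelihood test and of 0.0154 with the replicate block. The call was lost without control replicate 1 (-0.38, adjusted p = 0.434), control replicate 2 (-0.83, adjusted p = 0.105), HGF replicate 2 (-0.59, adjusted p = 0.211) or HGF replicate 3 (-0.63, adjusted p = 0.212), all by edgeR. In a fit of the 6 Detroit 562 libraries alone edgeR gave an adjusted p of 0.179.

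In FaDu BBC3 had normalized counts of 45.7, 51.4 and 46.1 in control and 29.7, 47.4 and 29.1 with HGF. In SCC-9 it had 224, 205 and 231 in control and 140, 187 and 174 with HGF. BBC3 was thus lower with HGF in 9 of 9 pairs, and the SCC-9 groups did not overlap. The log2 fold changes were -0.43 (adjusted p = 0.657) in FaDu and -0.40 (adjusted p = 1.00) in SCC-9 by edgeR's quasi-likelihood test. The mean effect over the lines was -0.52 (SE 0.15, adjusted p = 0.0265, edgeR) and was called without each of the 18 libraries in turn. In these omissions the value lay between -0.634 and -0.402, the latter close to the minimum fold change. The largest adjusted p was 0.0755 (edgeR). BMF and BBC3 were the 2 members called for the mean effect, beside 6.89% of all genes in either direction and 4.88% lower. With the block it was again these 2, beside 8.80%. The markers KRT5 (-0.53), COL1A1 (-0.56) and VWF (-1.48) were also called lower for the mean effect, KRT5 in 17 of 18 single omissions (not without Detroit 562 control replicate 1) and the others in 18, and their part in this result was not tested.

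PMAIP1, at chr18:59899948-59904306 on the plus strand, encodes NOXA, a BH3-only protein that binds MCL1 and favors its degradation. Its normalized counts in FaDu were 289, 310.1 and 456 in control and 495, 432 and 651 with HGF. Replicate 3 was the highest library in both groups, so the groups overlapped although HGF was higher in all 3 pairs. The log2 fold change of 0.58 (SE 0.22) had an adjusted p of 0.559 in edgeR's quasi-likelihood test and of 0.000809 with the replicate block (0.59). In Detroit 562 the values were 357, 323 and 450.2 in control and 424, 390.4 and 688 with HGF. The increase there was 0.41 (SE 0.22, adjusted p = 0.184), and with the block 0.39 (adjusted p = 0.00294), below the minimum fold change. Leaving out Detroit 562 control replicate 3 or HGF replicate 2 brought PMAIP1 past both thresholds (0.55, adjusted p = 0.0987, and 0.56, adjusted p = 0.0969, edgeR). Without HGF replicate 3, the highest library, the value was 0.11 (adjusted p = 0.753). In SCC-9 the values were 1162, 969 and 1117 in control and 1083, 981 and 1253 with HGF, with a log2 fold change of 0.03 (95% interval -0.41 to 0.47). The mean effect of 0.34 had an adjusted p of 0.0659 but missed the minimum fold change.

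No change in the other BH3-only members reached 0.4 on the log2 scale. BID, which is cut by caspase-8 and links death receptors to mitochondria, was lower with HGF in 9 of 9 pairs, with log2 fold changes for Detroit 562 of -0.20 (95% interval -0.43 to 0.04), for FaDu of -0.09 and for SCC-9 of -0.10. By edgeR's quasi-likelihood test the adjusted p values were 0.200, 0.833 and 1.00 in that order. With the block the Detroit 562 value of BID had an adjusted p of 0.00147 and stayed below the minimum fold change. BCL2L11, which encodes BIM, a target of ERK-driven degradation at the protein level, had log2 fold changes for Detroit 562 of -0.05, for FaDu of -0.13 and for SCC-9 of -0.20. It was lower in 3 of 3 pairs of FaDu and of SCC-9, and its 95% intervals all included 0. BIK, a BH3-only protein of the endoplasmic reticulum, had log2 fold changes of 0.06, 0.06 and -0.14 in the same order.

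**Figure D2:**
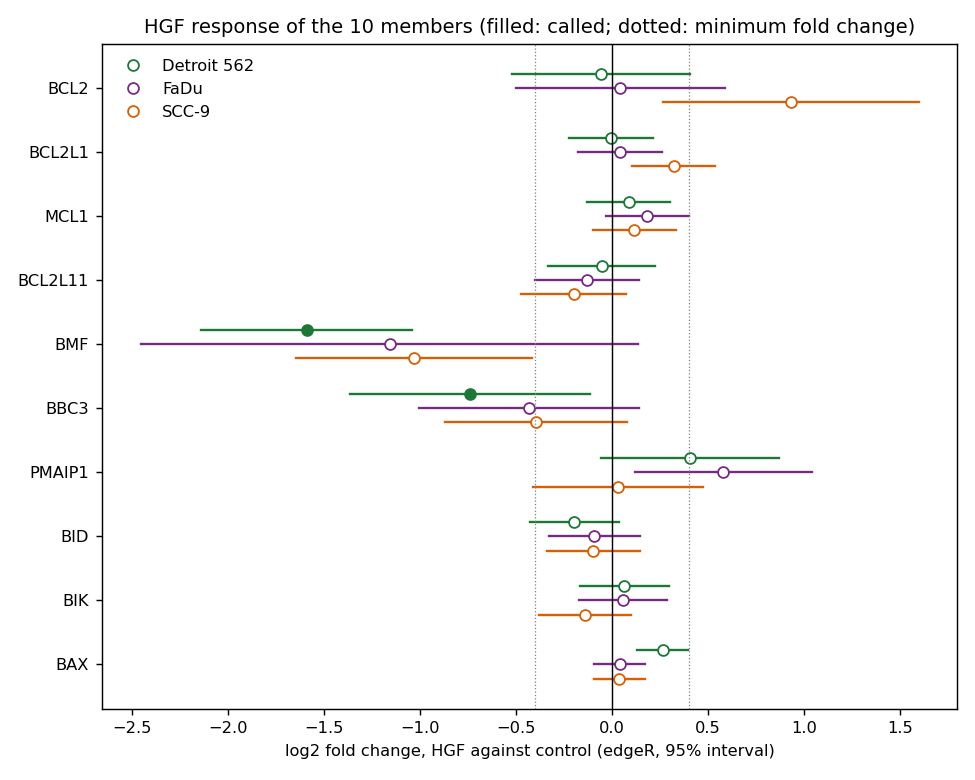
Log2 fold change of HGF against control for each member in the 3 cell lines, with 95% intervals from edgeR's quasi-likelihood fit. Filled points were called, which holds for BMF at -1.59 and BBC3 at -0.74 in Detroit 562, and dotted lines mark the minimum log2 fold change of 0.4 in either direction. The BBC3 call held in 2 of 6 single omissions of a library.

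Among the survival members none was called in any line. MCL1, a short-lived protein that many tumor cells depend on, had normalized counts of 12528, 11683 and 11821 in control and 11017, 11380 and 15865 in HGF-stimulated Detroit 562, so HGF replicate 3 alone lay above the controls. In FaDu MCL1 was 10776, 10793 and 11933 in control and 12585, 11866 and 13579 with HGF. In SCC-9 it was 13238, 13035 and 13234 in control and 14649, 13638 and 14538 with HGF, without overlap. The log2 fold changes were 0.09, 0.18 and 0.12, with upper 95% bounds of 0.30, 0.40 and 0.33.

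BCL2L1, which encodes BCL-xL, had normalized counts of 6906, 6108 and 5934 in control and 8531, 7271 and 7853 in HGF-stimulated SCC-9. The groups did not overlap and HGF was higher in 3 of 3 pairs. The log2 fold change of 0.32 (SE 0.10) had an unadjusted p of 0.00648 and an adjusted p of 0.929 in edgeR's quasi-likelihood test. The block gave an adjusted p of 0.0182, with the value below the minimum fold change. In Detroit 562 and FaDu the log2 fold changes of BCL2L1 were -0.01 (95% interval -0.22 to 0.21) and 0.04 (-0.18 to 0.26).

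BCL2 itself was rare in SCC-9, with 17, 19 and 12 reads in the control libraries and 44, 22 and 27 in the HGF libraries. These groups did not overlap, but HGF replicate 1 lay well above the other libraries. The log2 fold change of 0.93 (95% interval 0.27 to 1.60) had an unadjusted p of 0.00906 and an adjusted p of 0.985 by edgeR. In Detroit 562 BCL2 had normalized counts of 220.2, 231 and 225 in control and 189, 197 and 263 with HGF, and in FaDu of 56.2, 41.3 and 51.8 against 45.6, 37.3 and 70.8. The log2 fold changes there were -0.06 and 0.04.

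BAX, at chr19:48954815-48961798 on the plus strand, is the effector that forms the pore in the outer mitochondrial membrane. In Detroit 562 its normalized counts were 1365, 1403 and 1508 in control and 1847, 1629 and 1655 with HGF. The groups did not overlap, and the difference of 0.26 on the log2 scale (SE 0.06, 1.20-fold) had an adjusted p of 0.00771 in edgeR's quasi-likelihood test while missing the minimum fold change. In FaDu and SCC-9 the log2 fold changes were 0.04 (95% interval -0.09 to 0.17) and 0.04 (-0.10 to 0.17). Counting all members, the groups did not overlap for 2 of 10 (Detroit 562), 0 of 10 (FaDu) and 5 of 10 (SCC-9), beside 38.2%, 9.41% and 17.4% of all genes.

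Whether HGF acted differently on a member between lines was tested as the difference of the contrasts, and 0 of 10 members passed an adjusted p below 0.1 in any of the 3 pairs of lines. All genes passed at 0.239% for Detroit 562 minus FaDu, 0.924% for Detroit 562 minus SCC-9 and 0% for FaDu minus SCC-9. At an unadjusted p below 0.05 the members numbered 1, 3 and 1 in that order, beside 11.6%, 15.4% and 2.18% of all genes. For BMF the difference in log2 fold change was -0.43 (95% interval -1.98 to 1.12) between Detroit 562 and FaDu and -0.56 (-1.38 to 0.26) between Detroit 562 and SCC-9. With the replicate block 1, 5 and 1 members passed, beside 19.1%, 26.9% and 1.32% of all genes. BAX passed for Detroit 562 minus FaDu (0.22, adjusted p = 0.0825), and PMAIP1 for FaDu minus SCC-9 (0.56, adjusted p = 0.0418). For Detroit 562 minus SCC-9 the block called BCL2 (-0.99, adjusted p = 0.0469), BCL2L1 (-0.33, adjusted p = 0.0280), BMF (-0.55, adjusted p = 0.0345), PMAIP1 (0.36, adjusted p = 0.0487) and BAX (0.23, adjusted p = 0.0626). All these block values are edgeR's.

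Between the untreated lines 6 to 8 of 10 members were called, beside 61.0% to 65.4% of all genes. Levels are given as CPM per kb of exon (GENCODE 44, all exons of a gene merged), and reads in introns are part of the counts, which can raise the level of genes with long introns. Exons cover 5.01% of the extent of BIK, 6.41% of BCL2, 7.05% of BCL2L1, 10.9% of BID and 13.7% of BCL2L11, and from 25.9% (BMF) to the whole (MCL1) in the other members, and the share of intronic reads was not measured here. MCL1 was the most abundant member in each line, with a mean for Detroit 562 of 57.7 ± 2.18, for FaDu of 53.7 ± 3.19 and for SCC-9 of 63.3 ± 0.558 (SD, n = 3). BCL2 reached 0.445 ± 0.0106 (Detroit 562), 0.0984 ± 0.0151 (FaDu) and 0.0308 ± 0.00592 (SCC-9). In each line the 3 survival members together reached 105 ± 3.20, 71.8 ± 3.46 and 101 ± 3.33 (SD, n = 3), nearly all of it from MCL1 and BCL2L1.

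In Detroit 562 MCL1 was followed by BCL2L1 at 47.0, BID at 35.3, BAX at 13.7, BIK at 13.2, PMAIP1 at 4.30, BMF at 3.77, BCL2L11 at 2.00, BCL2 at 0.445 and BBC3 at 0.309. The neighbors BAX and BIK, PMAIP1 and BMF, and BCL2 and BBC3 overlapped in the range of their 3 libraries. In FaDu the order after MCL1 was BAX at 22.4, BCL2L1 at 17.97, BIK at 15.7, BID at 7.68, PMAIP1 at 4.02, BCL2L11 at 3.42, BBC3 at 0.374, BCL2 at 0.0984 and BMF at 0.0509, with overlap between BCL2L1 and BIK, PMAIP1 and BCL2L11, and BCL2 and BMF. In SCC-9 the order after MCL1 was BCL2L1 at 37.5, BAX at 19.0, PMAIP1 at 12.4, BIK at 7.46, BID at 5.54, BCL2L11 at 2.90, BBC3 at 1.72, BMF at 0.660 and BCL2 at 0.0308, with no overlap between neighbors.

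**Figure D3:**
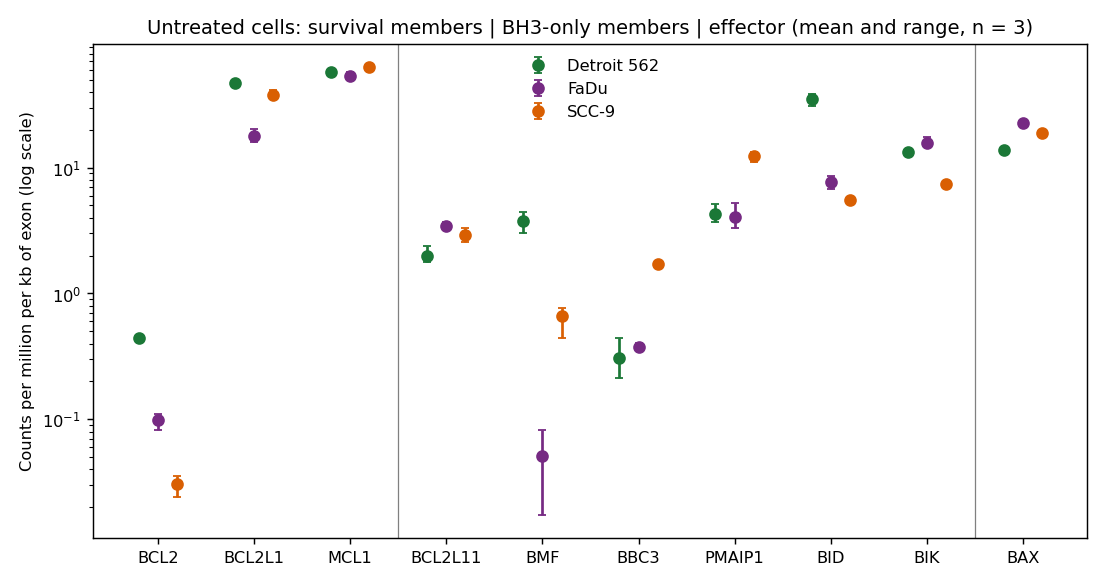
Level of each member in untreated cells as CPM per kb of exon on a log scale, with the mean and the range of 3 libraries per line. MCL1 stays between 53.7 and 63.3 on average, whereas BMF spans from 0.0509 in FaDu to 3.77 in Detroit 562.

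Among the members BMF showed the widest difference between untreated lines, with 74.2-fold more in Detroit 562 than in FaDu (log2 fold change 6.21, SE 0.36, adjusted p = 1.34e-10) and 5.72-fold more than in SCC-9 (2.52, adjusted p = 2.46e-07) by edgeR's quasi-likelihood test. The first of these folds rests on 4 to 18 reads per FaDu library. BCL2 was highest in Detroit 562 as well, by 2.17 over FaDu and 3.84 over SCC-9 on the log2 scale. BID was 4.59-fold higher in Detroit 562 than in FaDu and 6.37-fold higher than in SCC-9.

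The BH3-only genes BBC3 and PMAIP1 were highest in SCC-9. BBC3 was 5.51-fold lower in Detroit 562 than in SCC-9 (adjusted p = 1.24e-07), and PMAIP1 2.87-fold lower (adjusted p = 7.15e-06, edgeR's quasi-likelihood test). Between Detroit 562 and FaDu neither gene was called, with log2 fold changes of -0.26 and 0.10. Without Detroit 562 control replicate 1 BBC3 was called in that comparison (-0.62, adjusted p = 0.0548).

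BCL2L1 was lowest in FaDu, 2.62-fold below Detroit 562, and BAX was lowest in Detroit 562, 1.63-fold below FaDu. BIK was lowest in SCC-9, 2.11-fold below FaDu. MCL1 was called in none of the 3 comparisons, and its adjusted p of 0.0451 between SCC-9 and FaDu came with a log2 difference of 0.24. In all, 6 of 10 members were called between Detroit 562 and FaDu beside 61.0% of all genes, 4 higher in Detroit 562 (beside 31.2%) and 2 lower (29.8%). Between Detroit 562 and SCC-9 it was 8 of 10 beside 65.4%, 4 higher in Detroit 562 (31.4%) and 4 lower (33.9%). Between SCC-9 and FaDu it was 7 of 10 beside 64.2%, 4 higher in SCC-9 (33.5%) and 3 lower (30.7%). These shares lay near the background.

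Other family members and neighboring pathway genes were described from lists chosen for their known roles. Of 11 further BCL2 family genes 10 were tested (BCL2L15 was not), and in Detroit 562 HRK fell and BCL2A1 rose by the call rule. This stood beside 11.7% of all genes lower and 6.16% higher, so these counts lay near the background. HRK, a BH3-only gene best known from neurons, went from 124 ± 35.5 to 61.0 ± 8.39 normalized counts (SD, n = 3, log2 fold change -1.03, adjusted p = 0.0429), and the mean effect over the lines was -0.76 (adjusted p = 0.0223, edgeR). The Detroit 562 call of HRK was lost without control replicate 1, control replicate 2 or HGF replicate 3, with the largest adjusted p at 0.174. BCL2A1, a survival gene and NF-κB target, had at most 3 reads per control library and between 2 and 12 per HGF library (log2 fold change 2.96, SE 1.14, adjusted p = 0.0704), a fitted value that depends on the prior count. The value ranged from 2.46 without control replicate 3 to 6.16 without control replicate 1. Its call held without 2 of the 6 libraries and was lost without control replicate 2, control replicate 3, HGF replicate 1 or HGF replicate 3. BAK1, the second effector, differed by 0.31 on the log2 scale (adjusted p = 0.00460) and missed the minimum fold change. In FaDu and SCC-9 no gene of this or the following lists was called, beside 0.0258% and 0% of all genes. With the replicate block edgeR called HRK in FaDu (-0.83, adjusted p = 0.0225), together with 1 death receptor gene, 2 transcription factor genes and 1 DNA damage response gene. In SCC-9 the block called 1 gene each of the caspase, death receptor and transcription factor lists. All of these were lower, beside 5.60% of all genes in either direction in FaDu and 1.97% in SCC-9.

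Downstream of the mitochondria, 0 of 14 caspase, apoptosome and IAP genes were called in Detroit 562 (17.9% of all genes), and their median log2 change was -0.01, beside -0.01 over all genes. Of 11 death receptor pathway genes, 2 rose and 2 fell, beside 6.16% and 11.7% of all genes. The receptors TNFRSF10A (0.88, adjusted p = 0.00470) and TNFRSF10B (0.46, adjusted p = 0.0351) were higher, and their ligand TNFSF10, which encodes TRAIL (-1.51, adjusted p = 0.00733), and the initiator caspase gene CASP10 (-0.73, adjusted p = 0.0117) were lower by edgeR's quasi-likelihood test. TNFRSF10B lost its call without control replicate 1, control replicate 2 or HGF replicate 3, with a lowest log2 fold change of 0.24, while the other 3 kept theirs without each of the 6 libraries. TNFSF10 was also called for the mean effect over the lines (-0.97, adjusted p = 0.00700), as was CASP10 (-0.41, adjusted p = 0.0183), whose value lay at the minimum fold change and whose call held in 9 of 18 single omissions.

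Of 10 binding partners and turnover factors, 1 rose, beside 6.16% of all genes. This was VDAC1, the main channel of the outer mitochondrial membrane (0.40, adjusted p = 0.00157, edgeR). Its value lay at the minimum fold change so that 4 of 6 single omissions brought it below. Of 8 transcription factor genes that act on the family, TP73 (-0.72, adjusted p = 0.0450, edgeR) fell, beside 11.7% of all genes. With the replicate block 2 were called, TP73 and FOXO4 (-0.76, adjusted p = 0.00183, edgeR), beside 21.5% of all genes in either direction. Where no block was used, TP73 lost its call when control replicate 1, control replicate 2 or HGF replicate 3 was left out (largest adjusted p 0.196), whereas its mean effect over the lines of -0.74 was called without each of the 18 libraries. Of 11 DNA damage response genes, the nuclease gene AEN (0.72, adjusted p = 0.00514), the cell cycle inhibitor CDKN1A (0.61, adjusted p = 0.0258) and ZMAT3 (0.45, adjusted p = 0.0202) rose (6.16% of all genes), and FDXR (-0.55, adjusted p = 0.0342) fell (11.7%), all by edgeR. AEN kept its call without each of the 6 libraries. CDKN1A and ZMAT3 lost theirs without control replicate 2 or HGF replicate 3, and FDXR lost its call without control replicate 1, control replicate 2 or HGF replicate 3. For the mean effect over the lines AEN (0.42, adjusted p = 0.00767) and FOXO4 (-0.46, adjusted p = 0.0881) were also called by edgeR, AEN in 14 and FOXO4 in 6 of 18 single omissions. The 4 omissions that ended the call of AEN were those of Detroit 562 control replicate 1 and HGF replicate 3, FaDu control replicate 2 and FaDu HGF replicate 1.

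**Figure D4:**
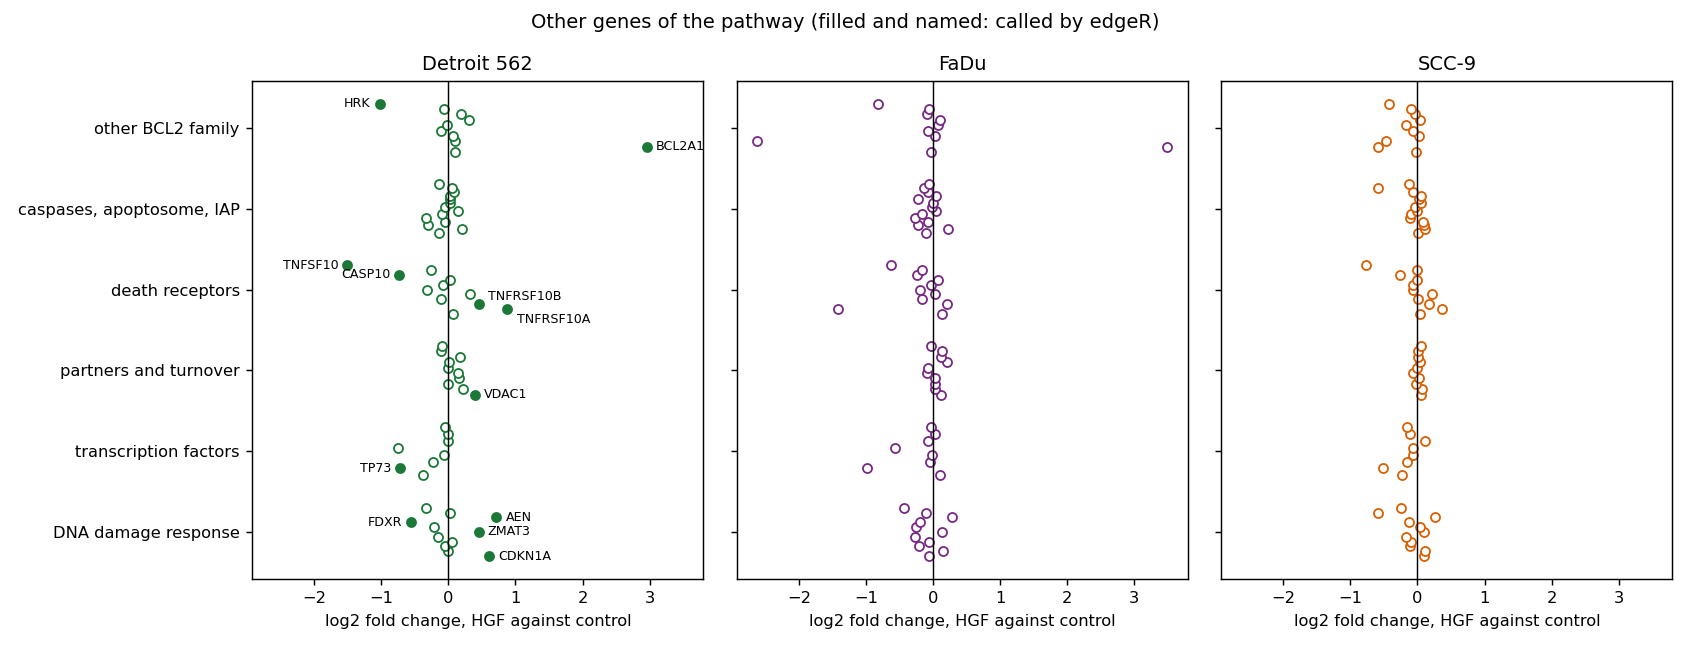
Log2 fold change of HGF against control for the other genes of the pathway in 3 cell lines, 1 point per tested gene. Filled and named points were called in Detroit 562, from TNFSF10 at -1.51 to BCL2A1 at 2.96, and no point is filled in FaDu or SCC-9.

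Across the 18 libraries, after the mean of each line was subtracted, the genes whose log2 CPM were most like those of BMF were GBP2 (Pearson's r = 0.943) and OSBPL5 (r = 0.940), and those most like BBC3 were TMEM120A (r = 0.908) and SLCO3A1 (r = 0.893). Same-numbered libraries of a line deviated together and so were not independent, and these values are descriptions without a test. The HGF treatment was not subtracted, so differences between HGF and control remain in these correlations and in those below. Among the members themselves the closest pair was BCL2 and BCL2L1 (r = 0.859), followed by MCL1 and PMAIP1 (r = 0.818) and by BMF and BBC3 (r = 0.750). The most opposed pairs were PMAIP1 and BID (r = -0.74) and BMF and PMAIP1 (r = -0.65).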

How the data were processed

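mRNA of 18 libraries was sequenced. The authors made stranded libraries (TruSeq), trimmed reads with Cutadapt 1.16, aligned them with STAR 2.5.2b to GRCh38.p12 with GENCODE annotation, and counted them with bedtools. The deposited values are raw counts per gene, whole numbers without normalization. Reads were counted over the whole extent of a gene on its strand, so intronic reads are included and a read in overlapping genes adds to each of them. None of the 10 members overlapped another gene of the table. Groups and replicate numbers came from the sample titles, and the study describes the experiment as repeated.

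The model was fitted with edgeR 4.0.16 in R 4.3.3 (filterByExpr on 6 groups, TMM, quasi-likelihood test on 15475 genes, 1 mean per group, all 18 libraries). Contrasts were HGF against control per line, their differences between lines, untreated lines against each other, and the mean effect. Genes were called at an adjusted p (Benjamini-Hochberg) below 0.1 with a log2 fold change of 0.4 or more in either direction, and differences between lines at the adjusted p alone. Normalized counts are TMM-scaled to the mean effective library size of 40095000. Correlations used a prior count of 2. Alternatives were DESeq2 1.42.0, other filters, scalings and thresholds, a replicate block and single omissions. Same-numbered control and HGF libraries of a line correlated at 0.161 to 0.563 in their deviations from group means, so the numbers were taken to pair libraries. Differently numbered ones correlated at -0.17 on average. Because group means were subtracted, this negative value largely follows from the positive ones and adds no separate support. Replicates differed beyond counting noise (chi-square per degree of freedom 7.93 to 76.1). The fit was tested on simulated data with 200 changed genes. GENCODE 44 matched 19802 of 19901 genes and RefSeq promoter windows 8 of 10 members.

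Named genes are all members, the list genes called in an HGF contrast (at most 4 per list and line), the 2 genes most like each called member among those with a mean log2 CPM of at least 1, and DUSP6 as a check. The members and lists were chosen with earlier results of these data known. An item of the transcription factor list is not reported here.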

Additional observations from a re-analysis of the deposited data

Results flagged for a closer look

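BIK stood out because its 3 Detroit 562 pairs all moved up with HGF and its 3 SCC-9 pairs all moved down. The difference of the log2 fold changes was 0.205 (Detroit 562 minus SCC-9, SE 0.16) and did not pass the test (adjusted p = 0.560, edgeR's quasi-likelihood test). Normalized counts of BIK were 504 ± 29.7 in control and 527 ± 5.76 in HGF-stimulated Detroit 562, and 285 ± 16.8 and 258 ± 17.8 in SCC-9 (SD, n = 3), and 2 of the 3 Detroit 562 pairs differed by less than 0.01 on the log2 scale.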

How the results depend on the processing

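Of the counts of members called under the alternatives, 164 stayed within 1.5 times the value reported and 13 moved. Of the values of single members, 1609 kept their side of the threshold, 14 passed only under the alternative, 6 no longer passed, and no called value reversed. With the replicate block 2 members were called in FaDu (BMF and PMAIP1) and 1 in SCC-9 (BMF) instead of 0, and 1, 5 and 1 differed in HGF response between Detroit 562 and FaDu, Detroit 562 and SCC-9, and FaDu and SCC-9 instead of 0. The block changed no other call among these comparisons. With the 6 libraries of the line alone 1 member was called in Detroit 562 (BMF), beside 2531 of 14063 genes. Without a minimum fold change 4 members had a mean HGF effect, beside 4366 of 15475 genes. With stricter thresholds (adjusted p 0.05, log2 fold change 1), 1 member was called in Detroit 562 (BMF), beside 621 of 15475 genes. These thresholds left 5 members between untreated Detroit 562 and SCC-9, beside 5484 genes, and 1 for the mean effect (BMF), beside 118. Leaving out single libraries gave between 1 and 3 members in Detroit 562, beside 1586 to 3629 genes. It gave 0 members in FaDu, beside at most 74 genes, and 0 in SCC-9, beside 0 genes. For the mean effect it gave 2 to 3 members, beside 814 to 1373 genes. There PMAIP1 was called without FaDu control replicate 3 (0.42, adjusted p = 0.0212, edgeR). The untreated comparisons gave 6 to 7 (Detroit 562 and FaDu), 8 (Detroit 562 and SCC-9) and 6 to 7 (SCC-9 and FaDu). In the last of these BID fell short of the minimum fold change without FaDu control replicate 1 (-0.38). All genes called numbered 9351 to 9498, 10026 to 10172 and 9854 to 9930 in that order. Differences in response stayed at 0 members. All genes passing there numbered 4 to 450 for Detroit 562 minus FaDu, 14 to 1240 for Detroit 562 minus SCC-9 and 0 for FaDu minus SCC-9. Depth limits BMF in FaDu and BCL2 in SCC-9, where fitted folds rest on few reads.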
